A study of Mus musculus with 36 samples.

Results

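Messenger RNA of the ventral tegmental area (VTA) was compared between modafinil-treated and vehicle mice. The difference over and above that in the nucleus accumbens (NAC) and the prefrontal cortex (PFC) was measured for 27022 probe sets. The platform was an Affymetrix mouse genome array. All 36 arrays of the study's 36 entered. The quantity reported, called the contrast below, is the modafinil minus vehicle difference in VTA less the mean of that difference over the other 2 regions, on the log2 scale. Each probe set samples a stretch of 1 transcript or of related ones, and a gene may have several.

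Male C57B1/6J mice went through conditioned place preference, in which an injection is paired with 1 compartment of a box. On alternate days from day 3 to day 10 the treated mice received modafinil at 65 mg/kg and the vehicle mice saline, with saline for both groups on the days between. Brains were taken 24 h after the last dose, at the end of a test on day 11, and each region was cut with a 1 mm punch from slices 100 μm thick. The VTA and the NAC each gave 10 arrays, 5 per treatment, and the PFC gave 16, 8 per treatment. Nothing in the labels ties an array to a mouse, so the p-values measure the spread between these samples, which may be technical in part.

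The VTA holds dopamine neurons that project to the NAC and the PFC, together with GABA and glutamate neurons and glia. Modafinil promotes wakefulness and blocks the dopamine transporter, the protein that takes dopamine back up into these neurons. The thalamus and the hypothalamus lie close to the VTA, so markers of their neurons were read beside those of dopamine neurons. In pieces of tissue, fewer cells of a type and less RNA per cell cannot be told apart.

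The 10 VTA arrays carried midbrain dopamine signal, though at unequal levels. The mean level of 19 dopamine neuron markers ran from 6.97 to 9.36 in them, against 5.95 to 6.43 in the NAC and PFC arrays. That level averaged 8.49 over the vehicle VTA arrays but 7.47 over the modafinil ones. Thalamic markers were high in the same punches. Their mean level spanned 8.17 to 10.05 in VTA, above every NAC array (7.51 to 7.88), while PFC arrays read 8.17 to 8.47. Whether the punches held VTA tissue alone was not tested. Array medians ran from 6.76 to 6.90 in VTA and NAC and from 7.21 to 7.27 in PFC, which lies on another scale. That offset cancels in a difference within a region. Arrays of 1 group correlated with the others of their region's group at 0.987 to 0.995 on average. The median contrast over all probe sets was -0.03.

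Of the 27022 probe sets, 317 passed an adjusted p of 0.05 in limma with Benjamini and Hochberg adjustment, 1.17 percent, and these are the ones called here. The VTA change was the higher in 227 of them (0.84 percent) and the lower in 90 (0.333 percent). Named by a single symbol, these were 150 genes higher and 75 lower. Of the higher genes 113 had further tested probe sets, 250 in all, of which 215 had the same sign and 49 were called. Of the lower genes 52 had further tested probe sets, 113 in all, of which 90 had the same sign and 0 were called. The higher calls were also the larger. Their median contrast was 0.68 against -0.41 for the lower calls, and 48 against 3 exceeded 1 in size. At an unadjusted p under 0.05 the order was the other way, with 1578 probe sets higher and 1986 lower. The count rests in part on single arrays, since 145 were called without modafinil VTA array 1 and 195 without vehicle VTA array 2. The 90 lower calls became 34 without modafinil VTA array 1, 37 without modafinil VTA array 2 and 42 without vehicle VTA array 1. The 227 higher calls became 111, 254 and 171 in those fits. The count of all calls fell to 2 in a fit that took the arrays' mean level of dopamine markers as a covariate, described with the marker lists.

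The contrast is built from the VTA change, so larger changes in VTA among the called sets are in large part set by how they were chosen, and the values here describe them without support for anything further. The median modafinil change of the probe sets called higher was 0.62 in VTA, -0.05 in NAC and -0.07 in PFC. For those called lower it was -0.34, 0.07 and 0.04. Within VTA alone, 940 probe sets were called (3.48 percent), 1.68 percent higher and 1.79 percent lower, and they included 209 of the 227 higher and 79 of the 90 lower ones. Those comparisons share the VTA arrays. The 940 became 409 without modafinil array 1, 531 without modafinil array 2 and 523 without vehicle array 1. In 166 of the 227, every modafinil VTA array lay above every vehicle array, as did 1.78 percent of all probe sets tested. In 58 of the 90 all lay below, as did 3.89 percent of all. The 1 called probe set whose VTA change was smaller in size than that of the other regions belonged to Mthfd1l.

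**Figure D1:**
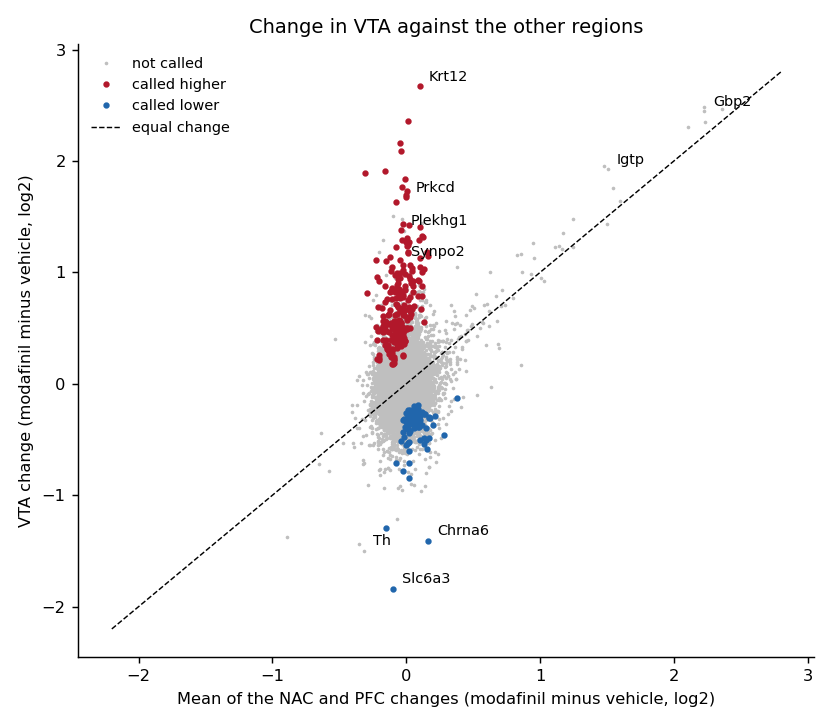
Modafinil minus vehicle in VTA (y axis, log2) against the mean of the NAC and PFC changes (x axis, log2) for the 27022 probe sets tested, with the 227 called higher in red, the 90 called lower in blue and the line of equal change dashed. The called probe sets spread along the VTA axis near an x value of 0, while Gbp2 and Igtp sit near the line of equal change.

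Set against each region alone, fewer probe sets passed. The VTA change differed from the NAC change in 74 probe sets (0.274 percent) and from the PFC change in 244 (0.903 percent). Of the 227 called higher, 66 passed against NAC, 167 against PFC and 61 against both, and these 61 read 41 named genes. Of the 90 called lower, 7, 33 and 3 did, and none of those 3 had a single gene symbol. Against NAC the count was 47 without vehicle VTA array 2, 49 without modafinil VTA array 1 or vehicle NAC array 5, 117 and 123 without vehicle VTA array 5 and modafinil VTA array 2, and 177 without vehicle NAC array 2. Against PFC it was 117 without modafinil VTA array 1 and 156 without vehicle VTA array 2. The number of arrays differs, 10 of NAC and 16 of PFC, and the median spread within a group was 0.15 in NAC and 0.13 in PFC.

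Synpo2, Plekhg1 and Prkcd mark this contrast, with the smallest p-values among genes whose contrast exceeded 1. Synpo2 encodes an actin-binding protein of the synaptopodin family, Plekhg1 a member of the Plekhg family, and Prkcd protein kinase C delta, a kinase activated by diacylglycerol that is abundant in thalamic relay neurons. They were known from earlier results of these data, so their place here is no independent support. The windows before their start sites, from 250 bases before to 50 after, are shown because the 3 genes moved together. Sequences are from RefSeq, build GRCm38.p6, on the gene's strand, with capitals marking a match to a searched motif.
Synpo2: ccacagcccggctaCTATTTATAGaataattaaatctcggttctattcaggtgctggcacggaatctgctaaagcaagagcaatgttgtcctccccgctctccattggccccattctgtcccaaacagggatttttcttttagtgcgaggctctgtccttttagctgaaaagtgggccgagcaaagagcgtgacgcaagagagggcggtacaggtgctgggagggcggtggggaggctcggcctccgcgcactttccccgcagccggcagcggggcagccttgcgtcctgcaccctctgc
Plekhg1: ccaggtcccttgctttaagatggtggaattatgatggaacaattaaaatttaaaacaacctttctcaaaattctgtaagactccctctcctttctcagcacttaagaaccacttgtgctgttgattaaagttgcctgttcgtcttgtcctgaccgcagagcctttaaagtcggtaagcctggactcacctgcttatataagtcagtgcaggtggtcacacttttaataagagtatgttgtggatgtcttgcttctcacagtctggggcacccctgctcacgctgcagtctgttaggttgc
Prkcd: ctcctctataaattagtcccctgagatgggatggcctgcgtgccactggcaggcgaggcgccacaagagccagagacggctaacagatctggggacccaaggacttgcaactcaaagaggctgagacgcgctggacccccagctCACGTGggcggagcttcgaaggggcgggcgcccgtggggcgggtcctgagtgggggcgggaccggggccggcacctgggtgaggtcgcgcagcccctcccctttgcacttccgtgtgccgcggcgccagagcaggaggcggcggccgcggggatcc
The Synpo2 window lies at chr3:123236100-123236399 on the minus strand, the Plekhg1 window at chr10:3872417-3872716 on the plus strand and the Prkcd window at chr14:30626159-30626458 on the minus strand. Prkcd has a second start in RefSeq, and the one printed lies upstream.

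Motifs of factors that the gene lists hold were searched on both strands. These were the MEF2 site (in capitals in Synpo2), the half-site AGGTCA bound by ROR receptors such as the product of Rora, and the E-box CACGTG bound by clock factors (in capitals in Prkcd). None of the motifs overlaps another in these windows, and the Plekhg1 window held none. Over all 32851 RefSeq windows of the same length, 3.19 percent held a MEF2 site, 16.26 percent the half-site and 7.15 percent the E-box. Among 156 windows of 114 genes called higher the shares were 2.56, 8.97 and 7.05 percent, and among 85 windows of 62 genes called lower 2.35, 14.12 and 11.76 percent. No motif was in all 3 windows.

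Synpo2 rose in VTA, and its groups overlapped elsewhere. The probe set with the smallest p read 6.62, 7.09, 6.62, 7.23 and 7.57 in the vehicle VTA arrays and 8.87, 8.19, 8.23, 8.16 and 8.16 in the modafinil ones. The groups did not overlap, and modafinil array 1 stood above the other 4. In NAC the vehicle arrays read 5.62, 5.39, 5.65, 5.56 and 5.58 and the modafinil arrays 5.23, 5.57, 5.67, 5.58 and 5.37, so the groups overlapped. PFC ran from 6.65 through a median of 6.76 to 6.91 in vehicle and from 6.48 through 6.85 to 6.95 in modafinil arrays. The contrast of Synpo2 was 1.33 (SE 0.158, adjusted p 1.94e-05 in limma), and the VTA change of 1.29 is 2.45-fold. A second probe set of the gene gave 1.85 (SE 0.411, adjusted p 0.0148), and 2 dim ones that were not tested gave 0.30 and 0.26.

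Plekhg1 showed the same order. Its probe set with the smallest p read 6.88, 6.94, 7.07, 6.32 and 7.35 in vehicle VTA arrays and 8.93, 7.89, 8.43, 8.33 and 7.88 in modafinil ones, again without overlap. In NAC it read 6.27, 6.29, 6.18, 6.13 and 6.08 in vehicle and 6.32, 5.80, 6.20, 6.16 and 6.10 in modafinil arrays. In PFC it ran from 5.67 through 5.78 to 6.07 in vehicle and from 5.63 through 5.75 to 6.11 in modafinil arrays. Both of these regions overlapped. The contrast was 1.42 (SE 0.178, adjusted p 3.00e-05 in limma), with a VTA change of 2.60-fold, and the second Plekhg1 probe set gave 1.04 (SE 0.207, adjusted p 0.00507).

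Prkcd varied most among the 3 in vehicle VTA arrays. By the same choice of probe set it read 6.08, 6.33, 6.34, 5.77 and 7.41 there and 8.83, 7.61, 8.33, 7.87 and 7.64 in modafinil arrays. Vehicle array 5 stood above the other 4 vehicle arrays, but the groups did not overlap. In NAC it read 6.00, 5.98, 5.99, 5.93 and 6.28 in vehicle and 6.08, 6.08, 5.94, 5.91 and 5.92 in modafinil arrays, while the PFC vehicle arrays ran from 6.57 to 7.03 and the modafinil arrays from 6.63 to 7.00. The contrast of Prkcd was 1.67 (SE 0.221, adjusted p 4.79e-05 in limma) and the VTA change 3.19-fold, while the second probe set gave 2.21 (SE 0.311, adjusted p 1.04e-04).

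**Figure D2:**
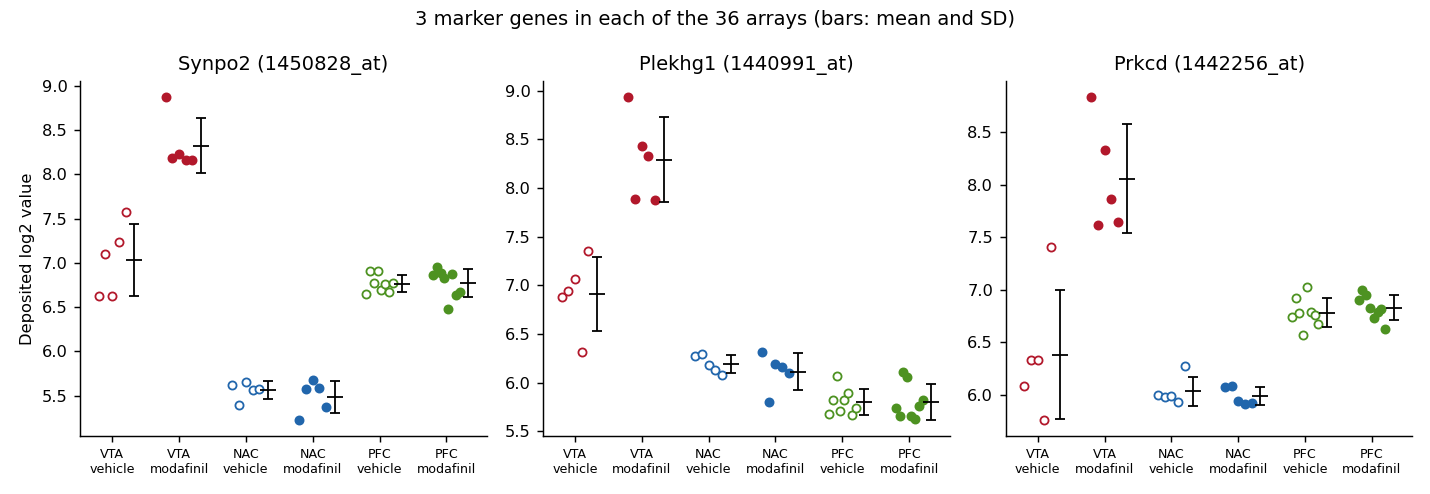
Deposited log2 values of Synpo2, Plekhg1 and Prkcd (y axes) in each of the 36 arrays, by region and treatment, with open points for vehicle, filled points for modafinil and black bars for the mean and SD. In each panel the 5 modafinil VTA arrays lie above the 5 vehicle VTA arrays, and the NAC and PFC groups overlap.

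Read by these probe sets, each of the 3 stayed called without any 1 of the 36 arrays. Over those 36 fits the contrast of Synpo2 ran from 1.19 to 1.46, that of Plekhg1 from 1.26 to 1.53 and that of Prkcd from 1.48 to 1.93. After the group means were subtracted, the arrays still tied them together in part. Across the 36 arrays r was 0.31 for Synpo2 with Plekhg1, 0.57 for Synpo2 with Prkcd and 0.73 for Plekhg1 with Prkcd, where both genes of a pair come from the same arrays. The 3 genes spread more widely within the VTA groups than within NAC and PFC. These values and the likeness that follows therefore rest more on the VTA arrays. The genes whose residual values were most like the mean of the 3, over the same 36 arrays, were Rgs7bp (0.73), Cit (0.73), Lrrn2 (0.72), Sox3 (0.70), Krt12 (0.67), Endou (0.66), Clmn (0.66), Prmt8 (0.66), Socs6 (0.66) and Ptpn4 (0.65).

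The genes with the largest higher contrast code for a mixed set of proteins. Krt12, a keratin, had the largest. It read 3.93, 3.76, 5.12, 3.58 and 6.04 in vehicle VTA arrays and 8.39, 6.32, 7.50, 6.79 and 6.78 in modafinil arrays, without overlap. Its contrast was 2.57 (SE 0.436, adjusted p 9.91e-04 in limma). The vehicle VTA mean of Krt12, 4.49, lay far below the VTA array medians and is not known to be above background, so no fold is given and its place at the top has that limit. Krt12 was tested because of its level in the other regions, with NAC arrays at 6.84 to 8.31 in vehicle and 6.67 to 8.59 in modafinil arrays. Krt12 in PFC lay higher than in any VTA array, at 9.25 to 9.73 in vehicle and 9.27 to 9.65 in modafinil arrays.

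The level that the filter asked of the mean over all arrays was 6.39. The vehicle VTA mean lay below it in 35 of the 227 probe sets called higher, 15.4 percent, against 8.32 percent of all tested. Among the 15 genes with the largest higher contrast it did so for Krt12, Rasgrp1, Ptk2b, Gabrd, Prkcd and Endou, and the sizes of their changes carry the same limit.

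Ramp3, which codes for a partner protein of peptide hormone receptors, read 7.34, 5.93, 8.02, 7.40 and 8.65 in vehicle VTA arrays. In the modafinil arrays Ramp3 read 10.38, 9.13, 9.60, 9.43 and 9.24, all above vehicle. Its contrast was 2.13 (SE 0.349). Tnnt1, a troponin T of slow muscle that thalamic neurons also express, had a contrast of 2.21 (SE 0.489). Endou, an endoribonuclease, had 1.30 (SE 0.193), Pkp2, a plakophilin of cell junctions, 1.30 (SE 0.280), and Pdp1, a phosphatase that activates pyruvate dehydrogenase, 1.28 (SE 0.194). All 15 genes of this group had a VTA change above 1, and Pkp2, Tnnt1 and Rora were the ones that did not pass against both other regions alone, with adjusted p of 0.106 for Pkp2 against PFC, 0.0656 for Tnnt1 against NAC and 0.050 for Rora against NAC in limma.

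Genes of signalling through diacylglycerol, the lipid that activates protein kinase C and Ras exchange factors, were read as a list. Of 33 tested members 5 were called higher, against 0.84 percent of all probe sets, and 0 lower, and the median was -0.04, near that of all probe sets. The list was chosen with earlier results of these data known and holds the marker Prkcd, so the count is no independent support. Rasgrp1, a Ras exchange factor that binds diacylglycerol, read 5.67, 5.03, 6.38, 5.64 and 5.94 in vehicle VTA arrays and 8.95, 6.91, 7.69, 7.37 and 7.28 in modafinil ones. The Rasgrp1 groups did not overlap, and the contrast was 2.07 (SE 0.284, adjusted p 7.32e-05 in limma). Its brighter probe set, the one counted in the list, gave a smaller contrast of 1.46. Prkch, another kinase of the protein kinase C family, had a contrast of 0.88 (SE 0.201), with a PFC change of 0.20 and a NAC change of -0.32. The other called members were Prkcd, Dgkh (0.47), a diacylglycerol kinase, and Unc13b (0.61), a protein of vesicle priming. Prkca, the classical alpha kinase, had -0.41 (adjusted p 0.336). Ptk2b, a calcium-regulated tyrosine kinase outside the list, had a contrast of 1.73 (SE 0.279).

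GABA-A receptor subunits form chloride channels, and the delta and alpha 4 subunits combine in receptors outside synapses. Of 9 tested subunits 2 were called higher, against 0.84 percent of all probe sets, and 0 lower. Gabrd, the delta subunit, read 6.23, 5.48, 6.77, 5.84 and 7.08 in vehicle VTA arrays and 8.98, 7.20, 8.13, 7.74 and 7.82 in modafinil arrays, with a contrast of 1.70 (SE 0.266). Gabra4 read 9.08, 8.47, 8.89, 9.18 and 9.56 in vehicle and 11.11, 9.55, 10.41, 10.21 and 10.01 in modafinil VTA arrays. The Gabra4 groups overlapped at vehicle array 5 and modafinil array 2, and the contrast was 1.30 (SE 0.223). Gabrb2 had 0.39 (adjusted p 0.168). Both called subunits are also in the thalamic list, and both lists were chosen with earlier results of these data known.

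RGS proteins shorten signalling by G proteins. Of 17 tested members 3 were called higher, where 0.84 percent of all probe sets were, and 0 lower, with a list median of 0.05. Earlier results of these data were known when the list was chosen, so the count is no independent support. Rgs16 read 7.45, 6.19, 8.14, 8.07 and 8.66 in vehicle VTA arrays and 9.70, 9.08, 9.20, 9.43 and 9.25 in modafinil ones, without overlap. Its contrast was 1.71 (SE 0.262, adjusted p 3.60e-04 in limma), and that of its brighter probe set 1.23 (SE 0.210). Rgs4 had 0.82 (SE 0.175) and Rgs7bp, which anchors RGS proteins to the membrane, 0.63 (SE 0.142). Rgs6 had -0.46 (adjusted p 0.112).

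Among 9 tested members of the synaptopodin and Plekhg families, Synpo2 and Plekhg1 were called higher, against 0.84 percent of all probe sets, and none was lower. Both are markers known from earlier results of these data, so that count is set by the choice of the list. Synpo, the founding synaptopodin, had a contrast of 0.23 (SE 0.101, adjusted p 0.314 in limma). The other 6 lay between -0.18 and 0.14. Among 26 potassium channel genes 0 were called in the contrast by limma, 3 had an unadjusted p under 0.05, and the largest contrast was 0.50.

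Clock genes set the daily rhythm of cells. Of 21 tested, 2 were called higher, against 0.84 percent of all probe sets, and 0 lower, with a median of 0.09. This list too was chosen with earlier results of these data known. Npas2 counts here as not called, by its brightest probe set, though another of its probe sets was called, as given under the other observations. Rora, a nuclear receptor that drives Arntl and is also a marker of thalamic neurons, read 9.61, 9.48, 9.73, 9.47 and 10.01 in vehicle VTA arrays and 11.86, 10.52, 10.94, 10.68 and 10.66 in modafinil ones. The Rora groups did not overlap in VTA, and the contrast was 1.25 (SE 0.198), against 1.21 for the probe set counted in the list. Hlf, a factor of the PAR bZIP family, had 0.90 (SE 0.180), with a VTA change of 1.03. Arntl had 0.40 (adjusted p 0.0971), made of a VTA change of 0.03 and changes of -0.40 in NAC and -0.34 in PFC.

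The 4 genes with the largest lower contrast were markers of dopamine neurons. Slc6a3, the dopamine transporter that modafinil blocks, read 12.43, 11.14, 11.07, 9.71 and 10.67 in vehicle VTA arrays and 8.08, 9.06, 9.30, 8.42 and 10.97 in modafinil ones. Modafinil array 5 lay within the vehicle range and the other 4 below it. Its contrast was -1.74 (SE 0.416, adjusted p 0.0268 in limma), and the VTA level was 3.58-fold lower. Chrna6, a nicotinic receptor subunit of dopamine neurons, read 9.71, 8.66, 8.71, 7.92 and 8.33 in vehicle and 6.49, 7.07, 7.23, 6.78 and 8.72 in modafinil VTA arrays. The same array 5 overlapped, and the Chrna6 contrast was -1.57 (SE 0.297, adjusted p 0.00320).

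Ret, the receptor for the growth factor GDNF, had a contrast of -1.14 (SE 0.296, adjusted p 0.0452 in limma), and it lost its call in 27 of the 36 fits that left out 1 array. Sncg, which codes for gamma-synuclein, read 9.49, 8.91, 8.89, 9.12 and 8.78 in vehicle and 7.77, 8.01, 8.20, 8.27 and 8.70 in modafinil VTA arrays, just without overlap. The Sncg contrast was -0.87 (SE 0.152, adjusted p 0.00135). Th, the enzyme that makes the dopamine precursor, had -1.19 (SE 0.458, adjusted p 0.229) and Drd2, the dopamine autoreceptor, -0.93 (SE 0.340, adjusted p 0.199). All 9 tested members of the list were negative, 4 of them called, where 0.333 percent of all probe sets were called lower, with a median of -1.14. Of the 20 markers 11 were not tested, since 1 was not matched on the array and 10 were too dim over all 36 arrays, Slc18a2 among them. Without that filter 8 members were called lower, and with it 2 were called when vehicle VTA array 1 or 2 or modafinil VTA array 1 or 4 was left out.

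The other genes in this group had smaller contrasts. Elfn1, a synaptic adhesion protein, had -0.76 (SE 0.197), Zeb2, a transcriptional repressor, -0.74 (SE 0.190), Kank4 -0.73 (SE 0.160), and Pde2a, a phosphodiesterase that cyclic GMP stimulates, -0.63 (SE 0.15). Pde2a read 8.99, 8.63, 8.67, 9.38 and 8.69 in vehicle and 8.03, 8.12, 8.28, 8.06 and 8.33 in modafinil VTA arrays, without overlap. Gm2115 (-0.74), Chchd7 (-0.66), the noncoding Snhg14 (-0.63), Tcf4 (-0.55), the RNA-binding Msi2 (-0.55) and Nadk2, a mitochondrial NAD kinase (-0.54), were lower too. Mthfd1l, an enzyme of mitochondrial folate metabolism, differed in kind. Its VTA change was -0.12 (SE 0.0947), and its contrast of -0.50 came with rises of 0.33 in NAC and 0.43 in PFC. Of the 36 fits without 1 array, Tcf4 kept its call in 9, Elfn1 in 10, Zeb2 in 14 and Gm2115 in 26. Slc6a3, Kank4, Chchd7, Pde2a, Snhg14 and Nadk2 kept theirs in 32 to 35. None of the 15 genes passed against both other regions alone.

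**Figure D3:**
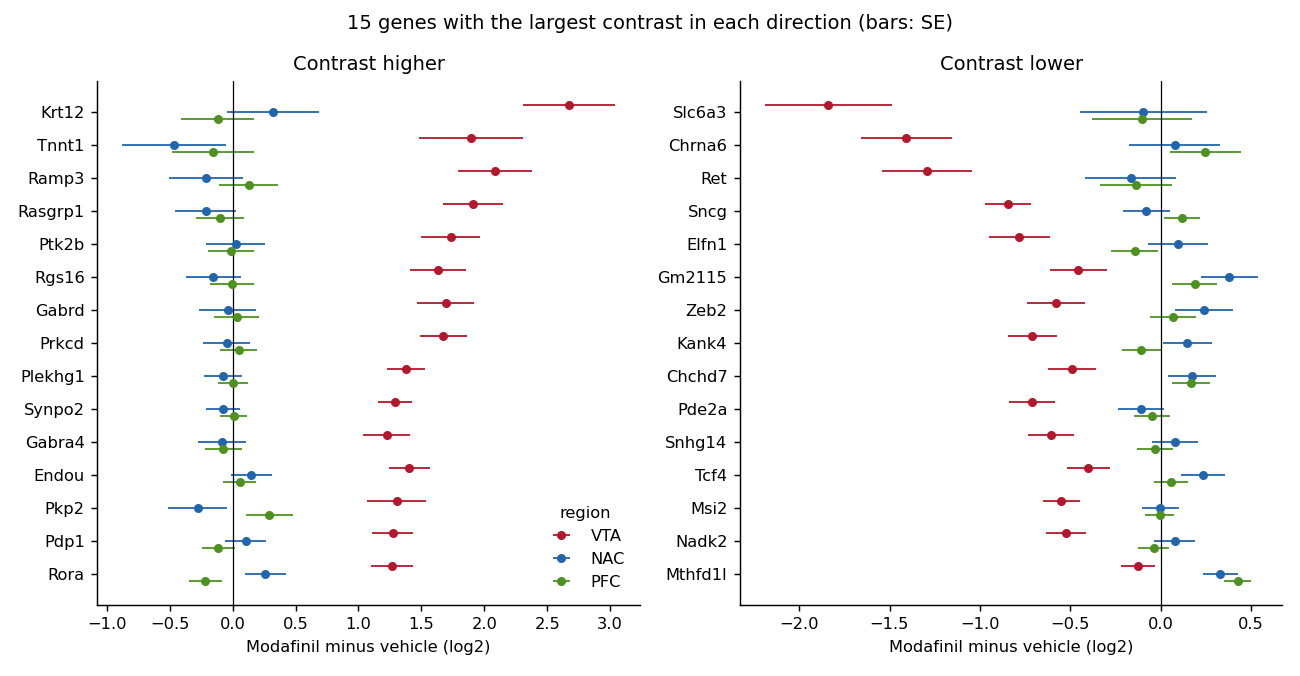
Modafinil minus vehicle (x axis, log2) in VTA, NAC and PFC for the 15 genes with the largest contrast in each direction, with SE bars. In the left panel the VTA points lie above 1 and the other regions near 0, and in the right panel Mthfd1l is the gene whose NAC and PFC points lie farther from 0 than its VTA point.

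Marker lists of neurons moved with these genes. Of 21 tested thalamic markers, 10 were called higher, against 0.84 percent of all probe sets, and 0 lower, 20 were positive, and the median was 0.86 against -0.03 over all probe sets. The 10 were Prkcd, Gabrd, Ramp3, Rgs16, Gabra4, Rora, Plekhg1, Tnnt1, Synpo2 and Adarb1, so all 3 marker genes of the contrast belong to this list. Of its members 7 had been shown by earlier results of these data, and among the other 14, 3 were called and 13 were positive, with a median of 0.53. Slc17a6, the vesicular glutamate transporter of thalamic neurons, had 0.09, and Calb2 had -0.16.

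The mean level of the thalamic list in VTA was 8.47, 8.17, 8.62, 9.08 and 9.01 in vehicle arrays and 10.05, 9.21, 9.52, 9.40 and 9.32 in modafinil arrays. That level includes the 7 members shown by earlier results of these data, so its difference between treatments is in part set by their choice. No level without them is given. The dopamine list read 9.36, 8.61, 8.46, 7.83 and 8.17 in vehicle and 6.97, 7.32, 7.50, 7.28 and 8.29 in modafinil arrays. The array highest on the thalamic list, modafinil 1, was the lowest on the dopamine list, and within the vehicle arrays the 2 lowest on the dopamine list, 4 and 5, were the highest on the thalamic list. In NAC and PFC the dopamine level differed little between treatments, with NAC means of 6.08 and 6.05 and PFC means of 6.22 and 6.20. The part of these marker levels in the contrast was not tested as a cause.

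**Figure D4:**
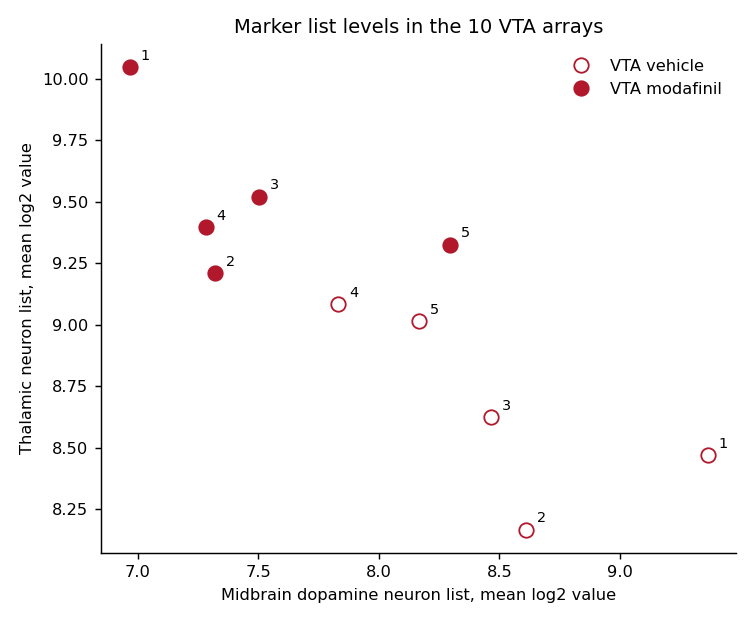
Mean log2 value of the thalamic neuron list (y axis) against that of the midbrain dopamine neuron list (x axis) in the 10 VTA arrays, numbered by replicate, open for vehicle and filled for modafinil. The modafinil arrays lie above 9.2 on the thalamic list and the vehicle arrays below 9.1, and modafinil array 5 is the one within the vehicle range of the dopamine list. The thalamic list includes members chosen from earlier results of these data, which in part sets this separation.

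With the dopamine level of each array, centred within its region, as a covariate, 2 probe sets were called in place of 317. They read Plekhg1 (1.34, SE 0.233, adjusted p 0.0255 in limma) and Rtn4ip1 (-0.68, adjusted p 0.0255). In VTA the covariate and the treatment moved together, so this fit cannot tell them apart well. The median size of the 317 contrasts was 0.47 in this fit against 0.60, the median SE was 0.166 against 0.133, and 315 kept their sign. With the level centred within each VTA group, so that it carries only the spread inside a group, 351 were called.

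Of the hypothalamic and raphe markers, 1 of 7 tested was called higher, against 0.84 percent of all probe sets. It was Hcrt, which codes for the wakefulness peptide orexin, at 6.76, 6.29, 7.10, 6.43 and 6.64 in vehicle and 7.74, 6.65, 7.88, 7.30 and 8.18 in modafinil VTA arrays. The Hcrt groups overlapped through modafinil array 2, and the contrast was 0.87 (SE 0.197, adjusted p 0.0176 in limma). Pmch, the gene for melanin-concentrating hormone, whose neurons lie beside those of Hcrt in the lateral hypothalamus, read 8.21, 6.91, 9.68, 8.97 and 9.47 in vehicle. In modafinil VTA arrays Pmch read 11.04, 6.78, 10.98, 10.52 and 10.78, low in the same array 2. Its contrast was 1.39 (SE 0.550, adjusted p 0.245 in limma). Without modafinil VTA array 2 the Pmch contrast was 2.20, and that was the 1 of the 36 fits without 1 array in which it was called. In NAC Pmch lay between 4.87 and 5.37. The part of hypothalamic tissue in the Hcrt result was not tested.

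Among 18 cortical excitatory markers 1 was called higher, where 0.84 percent of all probe sets were. It was Camk2a, a calcium-dependent kinase of excitatory neurons, with a contrast of 0.71 (SE 0.172). Mef2c had 0.74 (adjusted p 0.0590) and Lmo3 -0.82 (adjusted p 0.135). Of oligodendrocyte markers 0 of 16 tested were called by limma, 6 had an unadjusted p under 0.05, and all 16 were negative, between -0.44 and -0.16, with a median of -0.30. Their mean VTA level ran from 10.51 to 10.92 in vehicle and from 10.50 to 10.62 in modafinil arrays. No member was called among 17 striatal, 16 astrocyte, 13 microglial, 15 vascular, 2 choroid plexus, 7 meningeal and 3 red blood cell markers, 22 immediate early genes and 15 ribosomal protein genes. Of these 110 genes 5 had an unadjusted p under 0.05 in limma, and the list medians lay between -0.13 and 0.00. List levels also varied among the comparator arrays. The striatal level was 9.73 in modafinil PFC array 3, against 8.23 to 8.47 in vehicle PFC arrays. In NAC it ran from 9.82 to 10.89 in vehicle and from 9.46 to 10.87 in modafinil arrays. The part of this variation in the contrast was not tested.

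**Figure D5:**
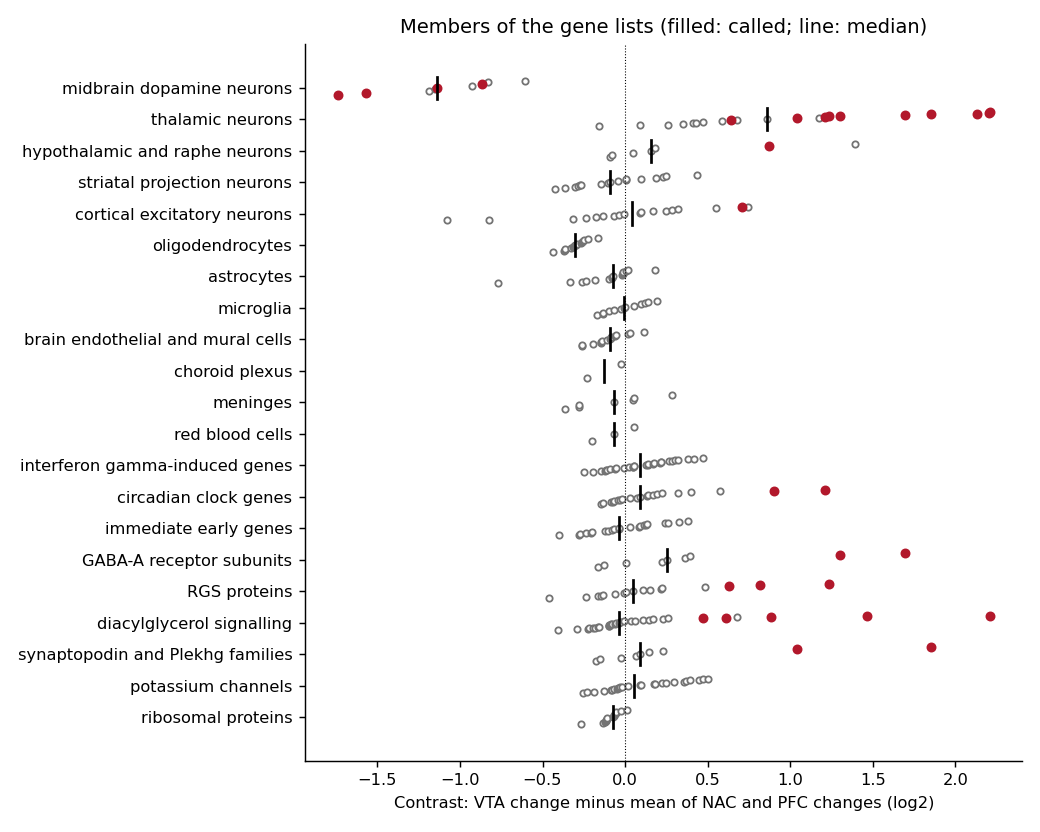
Contrast (x axis, log2) of the tested members of each of 21 gene lists, 1 probe set per gene, with filled points for called members and a line at the median. The thalamic and dopamine lists lie on opposite sides of 0, and the oligodendrocyte list lies to the left of 0 with no member called.

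Genes that interferon gamma induces had similar median changes in the 3 regions. Of 30 tested members 14 were called higher within VTA, against 1.68 percent of all probe sets. In the contrast limma called 0 of them, 1 had an unadjusted p under 0.05, and the median was 0.09. The median change was 0.63 in VTA, 0.56 in NAC and 0.62 in PFC. Gbp2, a guanylate-binding protein of cell defence, changed by 2.44, 2.04 and 2.42, for a contrast of 0.22 with a 95 percent interval from -1.22 to 1.66. Igtp, an immunity-related GTPase, had a contrast of 0.42 (interval -0.54 to 1.38), and Stat2 of 0.30 (interval 0.08 to 0.53, adjusted p 0.191 in limma). Without modafinil VTA array 3 the contrast of Gbp2 was 0.88 and that of Igtp 0.88, and without modafinil NAC array 4 they were -0.035 and 0.25. These intervals are wide for Gbp2 and Igtp, and they include differences of over 1 between VTA and the other regions.

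In each region some modafinil arrays had an interferon list level at or near that of vehicle arrays. In VTA it read 7.02 in that array and 7.98 to 8.15 in the other 4, against 6.98 to 7.23 in vehicle arrays. In NAC, modafinil arrays 3 and 4 read 7.08 and 6.77 and the other 3 read 7.71 to 7.95, against 6.71 to 6.89 in vehicle arrays. In PFC, modafinil arrays 3 and 6 read 7.58 and 7.35 and the other 6 read 8.14 to 8.58, against 7.29 to 7.51 in vehicle arrays. The interferon changes above therefore average over unequal shares of arrays with a high list level, 4 of 5 in VTA, 3 of 5 in NAC and 6 of 8 in PFC. In modafinil VTA array 3 Synpo2, at 8.23, Plekhg1, at 8.43, and Prkcd, at 8.33, lay within the range of the other modafinil VTA arrays.

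Levels in the other regions differed between the calls. After quantile normalization of all arrays together, 77.53 percent of the probe sets called higher had a higher level in NAC than in VTA among vehicle arrays, and 75.77 percent in PFC, against 49.2 and 51.06 percent of all tested. Among modafinil arrays the shares were 47.14 and 41.41 percent. For those called lower they were 15.56 and 23.33 percent in vehicle and 54.44 and 61.11 percent in modafinil arrays. These levels share the VTA arrays that the contrast is made of, so they describe the called sets and test nothing.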

How the data were processed

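The deposited values of the authors, 45101 probe sets by 36 arrays, are on the log2 scale and were computed with RMA per the submitters' processing notes; no version is given in the sources used here. Per the labels' protocols, RNA of 2 tissue pieces was pooled for many samples where its integrity was sufficient. The platform annotation gave 1 gene symbol to 34945 probe sets, several to 932 and none to 9160, besides 64 controls. Entrez identifiers matched 34741 of the probe sets with 1 symbol to a current symbol, which may be the same one.

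Testing was limited to probe sets whose mean over the 36 arrays reached the 40th percentile, which leaves out some genes bright in VTA alone. A model of 6 group means was fitted in R 4.3.3 with limma 3.58.1 (lmFit, eBayes) and tested on simulated data. Raw intensities and scan dates were not analysed here, so no batch could be checked.

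The marker genes and the 21 gene lists were chosen with earlier results of these data known. For list counts and levels a gene was read from its brightest probe set, and a list's level is the mean of its members. Genes among the 15 largest were read from the probe set with the smallest p. Thalamic markers also in another list numbered 9 of 24, the RGS list shares 3, and the striatal, cortical, clock, GABA-A, diacylglycerol and synaptopodin lists share 2 each. Genes were named by rule: the 15 largest called contrasts per direction, 1 probe set per gene, the 3 members of a list with the smallest p per direction, the 3 markers, and Slc6a3, Th, Slc18a2, Drd2, Gbp2, Igtp and Stat2. Adarb1, Dgkh, Unc13b, Slc17a6, Calb2 and Rtn4ip1 were named after their values were seen. Alternatives were another normalization, other filters, weights, a replicate block, single comparator regions, marker covariates and leaving out arrays.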

Additional observations from a re-analysis of the deposited data

Results flagged for a closer look

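Of 228 groups of arrays examined, for 35 probe sets and 3 list levels, 28 held 1 array far from the rest by Dixon's gap ratio, where chance gives about 1 in 20.

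In VTA, modafinil array 1 was the highest for Synpo2 at 8.871 (the other 4 at 8.158 to 8.23), for Pdp1 at 12.39 and for Mthfd1l at 8.497. Modafinil array 3 was the lowest for Gbp2 at 5.919, Igtp at 7.556, Stat2 at 6.585 and the interferon list at 7.02. Modafinil array 2 was the lowest for Chchd7 at 5.886 and Nadk2 at 5.729. Among vehicle VTA arrays, array 4 was the highest for Zeb2 at 9.164 and array 2 for Snhg14 at 9.043.

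In NAC, vehicle array 5 was the highest for Prkcd at 6.276 and Chrna6 at 6.329, vehicle array 1 the highest for Chchd7 at 5.564 and vehicle array 4 the lowest for Nadk2 at 5.687. Modafinil array 2 was the lowest for Tnnt1 at 5.236 and the thalamic list at 7.51.

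In PFC vehicle arrays, the highest were array 4 for Ptk2b at 9.929 and Slc6a3 at 7.218, array 5 for Chchd7 at 7.291 and array 2 for Pde2a at 10.45, and the lowest array 8 for Krt12 at 9.245 and array 4 for Chrna6 at 5.544. In PFC modafinil arrays, array 3 was the lowest for Ramp3 at 8.627 and the highest for Drd2 at 7.669, array 4 the lowest for Rgs16 at 6.439 and the highest for Chchd7 at 7.86, and array 1 the lowest for Pde2a at 9.934.

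The VTA change differed from the NAC change and from the PFC change, each tested by limma, in 12 of the genes with the largest contrasts. Their contrasts were 2.57 for Krt12, 2.13 for Ramp3, 2.07 for Rasgrp1, 1.73 for Ptk2b, 1.71 for Rgs16, 1.70 for Gabrd, 1.67 for Prkcd, 1.42 for Plekhg1, 1.33 for Synpo2, 1.30 for Gabra4, 1.30 for Endou and 1.28 for Pdp1.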

How the results depend on the processing

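The count of 317 calls in the contrast stayed within 1.5 times under quantile normalization (469), no filter (329), a stricter filter (252), trended and robust variances (314), weights by region (322) and the PFC change alone (244). Of the 317, those 6 settings called 301, 242, 226, 301, 305 and 200. It became 109 with 1 probe set per gene, where fewer were tested, 769 with a weight for each array, 74 against NAC alone, 2 with the dopamine level centred within region, and 112 without modafinil VTA array 1 and vehicle VTA array 2, an alternative chosen after seeing the data. Leaving out 1 array gave 145 to 421. The interferon list had 0 calls in every setting run. For changes of over 1.5 times the cause was not tested unless named.

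Within VTA the 940 calls became 453 with 1 probe set per gene, 1785 with array weights, 12 with the region-centred dopamine level, 270 without those 2 arrays and 409 to 1139 without 1 array. Against NAC the 74 calls became 168 under quantile normalization, 25 with 1 probe set per gene, 48 with region weights, 534 with array weights, 0 with the dopamine level, 26 without the 2 arrays and 47 to 177 without 1. Against PFC the 244 became 85, 584, 0 and 80 with 1 probe set per gene, array weights, the dopamine level and without the 2 arrays, and 117 to 309 without 1.

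The 10 called thalamic markers became 6 against NAC alone, 0 with the dopamine level and 7 to 12 without 1 array. The 4 called dopamine markers became 8 without a filter and 0 under the stricter filter, which asks a higher mean of each probe set. They became 2 with the fixed replicate block, 0 against NAC alone and 0 with the dopamine level. Without the 2 arrays 2 were called, and without 1 array 2 to 5.

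The sign turned in 6 cases. With the region-centred dopamine level, Slc6a3 became 0.18, Ret 0.092, Th 0.59 and Drd2 0.11, all members of that list, and Prkca 0.092. The contrast of Gbp2 ran from -0.035 without modafinil NAC array 4 to 0.88 without modafinil VTA array 3.

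Whether the labels' replicate numbers pair the arrays is not known, and the condition for using them as pairs, a residual correlation over 0.1 in every pair, was not met. Over 30 same-numbered pairs of arrays of 1 treatment from different regions it ran from -0.12 to 0.32, with a median of 0.069 and 9 above 0.1. Over 180 pairs with different numbers the median was -0.0089 and 23 were above 0.1. Missing a condition set on every pair does not show that the arrays are unpaired. As a fixed replicate block the numbers gave 270 calls in the contrast, and as a random replicate block 471, with 161 against NAC, at a consensus correlation of 0.1003. Signal over background was not available for these values, so how far dimness limits a call is known from the filters alone.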

Other observations

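Beside the genes described above, 2 genes had contrasts with small p-values and no place among the largest, and both were chosen after their values were seen. Gjc1, which codes for a connexin of electrical synapses, had a contrast of 0.77 (SE 0.101, adjusted p 4.79e-05 in limma), with a VTA change of 0.82. Npas2, a partner of Arntl in the clock, had 0.74 (SE 0.10, adjusted p 5.66e-05) from 1 probe set, with a VTA change of 0.57, while its other tested probe set gave 0.57 (adjusted p 0.197).

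The VTA arrays contributed unequally to the called sets. Taken as a difference from the mean of the 5 vehicle arrays, the median over the probe sets called higher was 1.09 in modafinil array 1 and 0.45 to 0.61 in the other 4. For those called lower it was -0.51 in modafinil array 2 and between -0.35 and -0.27 in the other 4. These medians describe the sets that the same arrays chose.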
